A study of Mus musculus with 7 samples.

Results

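Tight junction genes were examined in the dorsal skin of aged male C57BL/6 mice after topical treatment with ABT-263, an inhibitor of anti-apoptotic BCL-2 family proteins that is used as a senolytic. The set held the claudins of the epidermis (Cldn1, Cldn4, Cldn7, Cldn8 and Cldn12), occludin (Ocln), the zonula occludens genes Tjp1 and Tjp3, and the junctional adhesion molecule F11r. Members were chosen by name as epithelial claudins, occludin, zonula occludens genes and their partner F11r, with the endothelial claudin Cldn5 left out, and they made up 9 of the 55450 gene identifiers in the count table. All mice were 24 months old, had the dorsal hair removed and carried a semi-occlusive dressing over the treated skin. In the ABT-263 group, 3 mice (476, 477 and 478) received 5 μM ABT-263 for 5 days, and in the DMSO group, 4 mice (480, 481, 482 and 483) received the DMSO vehicle alone for 5 days. Polyadenylated RNA of whole skin was sequenced once per mouse, so each value came from 1 animal and mixed epidermis, dermis, appendages, vessels and underlying tissue.

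Tight junctions seal the space between neighbouring epithelial cells, and in the epidermis they lie in the granular layer below the cornified layer. Claudins form the paracellular strands together with occludin, F11r (JAM-A) is an immunoglobulin-type adhesion molecule beside the strands, and the zonula occludens proteins tie the strands to actin from the cytoplasmic side. ZO-1, the product of Tjp1, is also found at cell contacts outside epithelia, among them those of endothelial cells and fibroblasts, whereas ZO-3, the product of Tjp3, is restricted to epithelia.

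Of the 9 tight junction genes, 1 was higher after ABT-263 and none was lower. The gene that rose was Tjp1, by 2.21-fold, with no overlap between the mice of the groups. The other 8 genes did not pass the test, and Cldn1, the main barrier claudin of the epidermis, had a log2 fold change near 0. Calls were made with the quasi-likelihood test of edgeR at an adjusted p under 0.05 over the 17959 genes that passed the filter on low counts, which included all 9 members. Across all genes tested, 24.2% were called, 12.4% as higher and 11.7% as lower, so 1 call among 9 genes was no larger a share than in the whole table. At an unadjusted p under 0.05, and with DESeq2 or limma in place of edgeR, the count was likewise 1 higher and 0 lower. The median log2 fold change of the 9 genes was 0.12, against 0.00 for all genes tested, and 5 of the 9 estimates were positive.

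The stretches upstream of the annotated start are shown for Tjp1, the gene that was called, for its paralogue Tjp3, which was not called, and for Cldn4, which had the highest length-scaled level of the 9 genes. Each is 250 bases long, ends at the base before the start, is written 5′ to 3′ on the gene's own strand and comes from RefSeq on GRCm38.p6. Capitals mark matches to a GC box (GGGCGG, read as CCGCCC on the other strand) or to an AP-1 type motif (TGANTCA).
Tjp1, chr7:65371245-65371494, minus strand: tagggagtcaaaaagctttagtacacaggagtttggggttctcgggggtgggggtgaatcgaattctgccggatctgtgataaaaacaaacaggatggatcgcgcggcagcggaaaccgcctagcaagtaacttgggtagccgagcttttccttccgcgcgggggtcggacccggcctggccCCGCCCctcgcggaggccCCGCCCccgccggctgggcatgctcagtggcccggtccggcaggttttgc
Tjp3, first of 2 starts, chr10:81291582-81291831, minus strand: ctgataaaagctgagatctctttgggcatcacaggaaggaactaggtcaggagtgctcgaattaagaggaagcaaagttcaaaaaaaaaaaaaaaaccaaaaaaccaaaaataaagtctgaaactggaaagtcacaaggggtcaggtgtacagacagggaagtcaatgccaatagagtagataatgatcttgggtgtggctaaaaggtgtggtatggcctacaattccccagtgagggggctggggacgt
Cldn4, chr5:134946935-134947184, minus strand: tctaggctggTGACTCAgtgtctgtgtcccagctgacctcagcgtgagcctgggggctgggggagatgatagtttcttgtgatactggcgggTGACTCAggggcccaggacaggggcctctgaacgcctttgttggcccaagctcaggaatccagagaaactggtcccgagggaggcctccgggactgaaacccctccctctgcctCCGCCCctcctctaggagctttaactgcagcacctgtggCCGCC
The Tjp1 stretch held 2 GC boxes, 68 and 50 bases upstream of the start, and no AP-1 type motif. The Tjp3 stretch held none of the motifs searched. The Cldn4 stretch held 2 AP-1 type motifs, 240 and 158 bases upstream, and 2 GC boxes, 44 and 5 bases upstream, the last of which ends 1 base beyond the printed stretch.

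Promoter entries, each reaching from 250 bases before to 50 bases after a start, matched 8 of the 9 genes and 13 starts. Both strands were searched. A GC box stood in 9 of the 13 windows, belonging to 7 genes, and in 35.7% of the 32851 windows of the table. Windows of the same gene can overlap, so the 13 are not separate. The same GC box of Cldn12 was counted in 2 windows, 13 and 73 bases upstream of their starts. An AP-1 type motif stood in 2 of the 13, those of Cldn4 and F11r, and in 7.81% of all windows. A TATA box (TATAAA) was in 0 of the 13 and 13.6% of all, and a grainyhead type motif (AACCNGTT) in 0 of the 13 and 2.09% of all. A match is only a match of letters.

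Tjp1 encodes ZO-1, the scaffold that links claudins, occludin and F11r to the cytoskeleton, and lies on chromosome 7 from 65296165 to 65527781 on the minus strand of GRCm38, with 31 exon blocks. The RefSeq start shown above lies inside this GENCODE gene span. Its normalised read counts, in CPM (counts scaled to library size) after TMM normalization, were 14.9, 17.3, 14.3 and 11.3 in DMSO mice 480, 481, 482 and 483, and 30.6, 26.3 and 38.7 in ABT-263 mice 476, 477 and 478. Every ABT-263 mouse was above every DMSO mouse. The DMSO mean was 14.4 ± 2.47 CPM (SD, n = 4) and the ABT-263 mean 31.9 ± 6.27 CPM (SD, n = 3). Tjp1 thus rose by 1.14 on the log2 scale (SE 0.19, 95% interval 0.71 to 1.58, edgeR adjusted p = 0.00868). The call held in all 15 alternatives tried, each mouse left out in turn among them, over which the log2 fold change lay between 0.99 and 1.29. Groups that do not overlap were common in these data, at 37.1% of all genes tested.

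Tjp3 encodes ZO-3, the epithelial paralogue of ZO-1 (chromosome 10, 81273207 to 81291581, minus strand). It was measured at 51.3, 30.1, 44 and 23.6 CPM in the DMSO mice and at 12.9, 33.2 and 33.7 CPM in the ABT-263 mice. The groups overlapped, and the lowest value was that of ABT-263 mouse 476. The mean was 37.2 ± 12.7 CPM (SD, n = 4) with DMSO and 26.6 ± 11.9 CPM (SD, n = 3) with ABT-263, and the log2 fold change of -0.48 (SE 0.39, 95% interval -1.38 to 0.41) did not pass the test (edgeR adjusted p = 0.388). Reads of Tjp3 were counted by strand, and 1.08% of its exon bases overlap Apba3 on the opposite strand.

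The paralogues were also set against each other within each mouse, which largely removes the library scaling. The log2 ratio of Tjp3 to Tjp1 in CPM was 1.75, 0.78, 1.59 and 1.03 in the DMSO mice and -1.22, 0.33 and -0.19 in the ABT-263 mice. Every ABT-263 mouse had a lower ratio than every DMSO mouse. Tjp1, the denominator, rose by 1.14 by itself, so any member that rose less falls against it. The same holds for the ratios of Ocln and F11r to Tjp1. The difference between the group means was -1.65 on the log2 scale (exact two-sided permutation test, p = 0.0286, the smallest that 35 arrangements of 7 mice can give). After Benjamini-Hochberg adjustment over the 7 ratios between members that were tested, the exact test gave 0.1, which did not pass 0.05. Without each mouse in turn the difference stayed between -2.0 and -1.22.

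**Figure D1:**
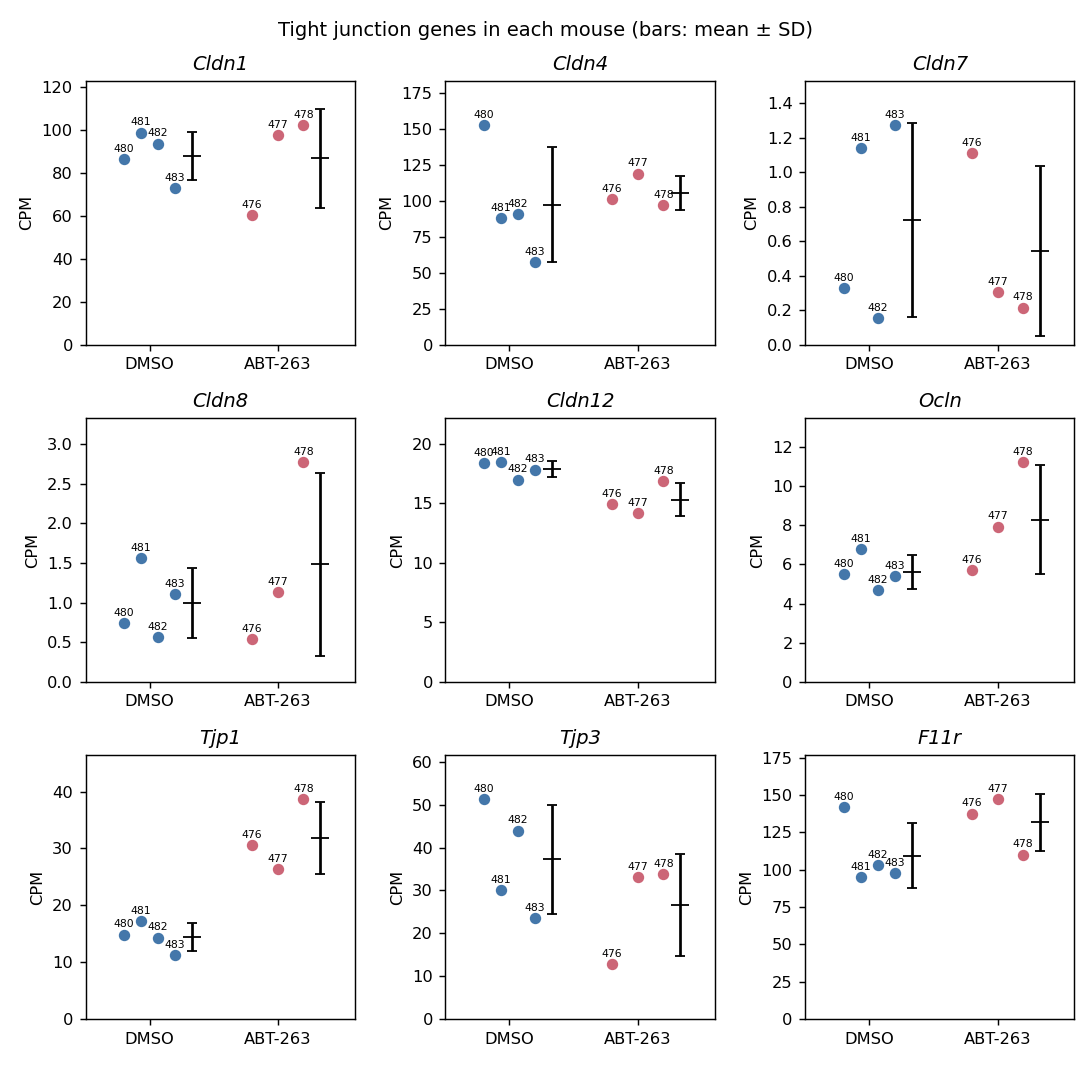
Normalised read count in CPM on linear axes from 0 for each of the 9 tight junction genes, with 1 point per mouse (numbers are mouse numbers) and bars for mean ± SD of 4 DMSO and 3 ABT-263 mice. Tjp1 lies between 11.3 and 17.3 with DMSO and between 26.3 and 38.7 with ABT-263, while the points of the other genes overlap except for Cldn12.

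Cldn1 encodes claudin-1, the strand protein that the epidermal barrier cannot do without (chromosome 16, 26356642 to 26371841, minus strand). Its counts were 86.4, 98.7, 93.6 and 72.9 CPM with DMSO and 60.4, 97.4 and 102 CPM with ABT-263. The ABT-263 mice held both the lowest and the highest of the 7 values. The mean was 87.9 ± 11.2 CPM (SD, n = 4) against 86.7 ± 22.9 CPM (SD, n = 3), and the log2 fold change was -0.02 (SE 0.20, edgeR adjusted p = 0.953). The 95% interval from -0.48 to 0.45 leaves room for a change in either direction of that size.

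Cldn4 encodes claudin-4, a strand protein of the upper living layers (chromosome 5, 134945119 to 134946934, minus strand, in a single exon). Its counts were 153, 88.4, 90.9 and 57.7 CPM with DMSO and 101, 119 and 96.9 CPM with ABT-263. The ABT-263 values lay inside the DMSO range, which DMSO mouse 480 stretched upwards. The log2 fold change was 0.12 (SE 0.29, 95% interval -0.56 to 0.79, edgeR adjusted p = 0.795).

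Cldn12 encodes a claudin without the usual binding motif for zonula occludens proteins (chromosome 5, 5489537 to 5514958, minus strand). Its counts were 18.4, 18.5, 17.0 and 17.8 CPM with DMSO and 14.9, 14.2 and 16.9 CPM with ABT-263. The groups did not overlap, DMSO mouse 482 and ABT-263 mouse 478 being almost level, and the spread among DMSO mice was the narrowest of the 9 genes relative to the mean. The mean was 17.9 ± 0.674 CPM (SD, n = 4) against 15.3 ± 1.39 CPM (SD, n = 3), and the log2 fold change of -0.23 (SE 0.13, 95% interval -0.52 to 0.07) was not called (edgeR adjusted p = 0.228).

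Cldn7 and Cldn8 had the lowest counts of the 9 genes. Cldn7 (chromosome 11, 69964779 to 69967885, plus strand), a claudin found along basolateral membranes as well as in junctions, had between 3 and 31 counts per library. Its values ran from 0.154 to 1.27 CPM with DMSO and from 0.215 to 1.11 CPM with ABT-263. The log2 fold change of -0.47 had a 95% interval from -2.37 to 1.43 (edgeR adjusted p = 0.704), so no difference was detectable at this depth. Cldn8 (chromosome 16, 88560828 to 88563183, minus strand), a sealing claudin, had between 11 and 129 counts per library. Its values ran from 0.565 to 1.56 CPM with DMSO and from 0.536 to 2.77 CPM with ABT-263, both ends of the whole range lying in the ABT-263 group. The log2 fold change was 0.58 (SE 0.58, 95% interval -0.75 to 1.92, edgeR adjusted p = 0.487).

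Ocln encodes occludin, a membrane-spanning protein that joins claudin strands (chromosome 13, 100496507 to 100552718, minus strand). Its counts were 5.52, 6.78, 4.67 and 5.42 CPM with DMSO and 5.72, 7.94 and 11.2 CPM with ABT-263. ABT-263 mice 477 and 478 were above all DMSO mice, and mouse 476 was within their range. The mean was 5.60 ± 0.876 CPM (SD, n = 4) against 8.30 ± 2.77 CPM (SD, n = 3), and the log2 fold change of 0.57 (SE 0.26, 95% interval -0.03 to 1.16) did not pass the test (edgeR adjusted p = 0.139). The log2 ratio of Ocln to Tjp1 in the same mouse was lower in every ABT-263 mouse than in any DMSO mouse. The group means of this ratio differed by -0.62 (exact two-sided permutation test, p = 0.0286, adjusted over 7 ratios 0.1). The estimate of Tjp1 (1.14) was above that of Ocln (0.57), so the ratio was lower without a fall of Ocln.

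F11r encodes JAM-A, which binds ZO-1 and the polarity protein Par3 (chromosome 1, 171437535 to 171464603, plus strand). Its counts were 142, 94.9, 103 and 97.9 CPM with DMSO and 137, 147 and 110 CPM with ABT-263. DMSO mouse 480 stood with the ABT-263 mice, and the other 3 DMSO mice were below all of them. The log2 fold change was 0.27 (SE 0.18, 95% interval -0.15 to 0.68, edgeR adjusted p = 0.308). The log2 ratio of F11r to Tjp1 differed by -0.84 between groups that overlapped (exact two-sided permutation test, p = 0.0857, adjusted over 7 ratios 0.2).

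Ratios among the claudins showed no shift past the spread between mice. Against Cldn1 in the same mouse, the ABT-263 mean minus the DMSO mean on the log2 scale was 0.25 for Cldn4, -0.15 for Cldn7, 0.34 for Cldn8 and -0.17 for Cldn12. The groups overlapped for all 4 ratios, with exact two-sided permutation p between 0.429 and 0.829.

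**Figure D2:**
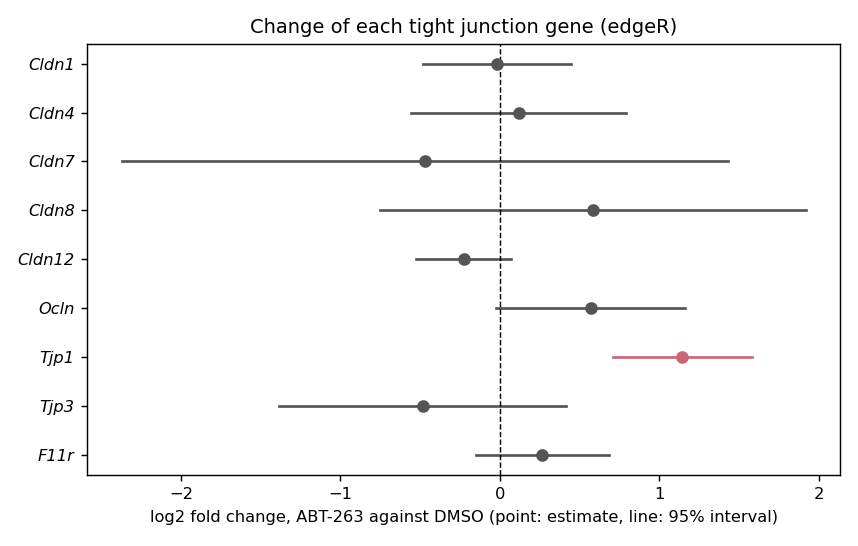
Log2 fold change of ABT-263 against DMSO from edgeR (horizontal axis) for each of the 9 genes, with points for the estimate and lines for the 95% interval. The interval of Tjp1, from 0.71 to 1.58, is the only one that leaves out 0, and that of Cldn7 is the widest.

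To compare levels between genes, counts were divided by exon length and scaled to TPM, a share of all transcripts in a library. In DMSO skin the order was Cldn4 (mean 106 TPM, mice 65.1 to 150), F11r (82.1 TPM, 75.3 to 95.1), Cldn1 (36.9 TPM, 30.8 to 46.2), Tjp3 (19.9 TPM, 13.0 to 24.7), Cldn12 (8.58 TPM, 7.76 to 9.88), Tjp1 (3.76 TPM, 2.95 to 5.01), Ocln (2.7 TPM, 2.22 to 3.64), Cldn8 (0.875 TPM, 0.480 to 1.5) and Cldn7 (0.780 TPM, 0.158 to 1.34). Neighbours whose ranges overlapped were Cldn4 and F11r, Tjp1 and Ocln, and Cldn8 and Cldn7. Within each DMSO mouse, however, Tjp1 was above Ocln. In mice 480, 481, 482 and 483, Tjp1 was at 3.39, 5.01, 3.67 and 2.95 TPM and Ocln at 2.34, 3.64, 2.22 and 2.63 TPM. Cldn4 and F11r exchanged places in DMSO mouse 483, as did Cldn8 and Cldn7, so neither pair kept its order in every DMSO mouse. The ranges of the remaining neighbours did not overlap.

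In ABT-263 skin the order of the 9 genes was kept except for 1 exchange, in which Tjp1 (9.40 TPM, mice 7.25 to 12.3) stood above Cldn12 (8.31 TPM, 7.21 to 9.87). Their ranges overlapped there, whereas with DMSO every Tjp1 value was below every Cldn12 value. The 2 membrane-associated genes at the top were Cldn4 (132 TPM, 124 to 141) and F11r (112 TPM, 102 to 119), followed by Cldn1 (41.1 TPM, 27.7 to 52.3), Tjp3 (16.5 TPM, 7.70 to 22.5), Tjp1, Cldn12, Ocln (4.55 TPM, 3.01 to 6.59), Cldn8 (1.48 TPM, 0.506 to 2.91) and Cldn7 (0.624 TPM, 0.273 to 1.26). TPM values carry no TMM scaling, so they give the order within a treatment and not the change between treatments. In ABT-263 skin the ranges of neighbours overlapped for Tjp3 and Tjp1, Tjp1 and Cldn12, and Cldn8 and Cldn7.

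**Figure D3:**
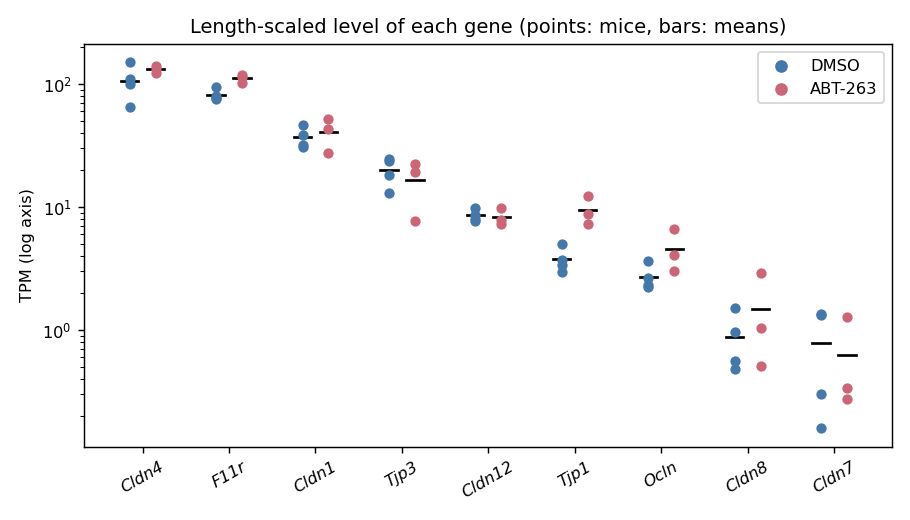
Length-scaled level in TPM (log axis) of the 9 genes, ordered by the DMSO mean, with points for mice and bars for group means. Cldn4 and F11r are highest in both groups, and Tjp1 stands at 3.76 with DMSO and 9.40 with ABT-263, level with Cldn12.

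Cell type markers were read beside the tight junction genes, because a whole-skin count can move with cell type shares as well as with expression. The part of cell type shares in the tight junction values was not tested. Fewer cells of a type and less RNA per cell cannot be told apart in such samples. The 7 basal keratinocyte markers, among them Krt14 and Krt5, summed to 18219 to 31255 CPM with DMSO and 13955 to 35982 CPM with ABT-263, and 1 of 7 was called higher and 1 lower. Krt14 had a log2 fold change of 0.25 (edgeR adjusted p = 0.728), and Krt15, a keratin of basal and bulge cells, fell by 1.45 on the log2 scale (edgeR adjusted p = 0.0312), a call kept without DMSO mouse 480 or ABT-263 mouse 477 and lost without any other single mouse (log2 fold change -1.74 to -1.18). The 8 suprabasal markers summed to 13153 to 45897 CPM and 7960 to 29852 CPM, with 1 of 8 higher, none lower and a median log2 fold change of -0.37. Leaving out 1 mouse gave 0 to 1 call in each direction for the basal and 0 to 1 higher for the suprabasal list, and the suprabasal median was 0.12 without DMSO mouse 480. Lor, the most abundant suprabasal marker, had a log2 fold change of -1.08 (edgeR adjusted p = 0.275).

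The 4 wound keratins, made by keratinocytes at injury, summed to 2529 to 18950 CPM with DMSO and 9345 to 21747 CPM with ABT-263. None was called by edgeR. The median of their log2 fold changes was 0.98, and Krt16, the most abundant, was at 0.77 (edgeR adjusted p = 0.591). DMSO mouse 480 held the highest DMSO sum, and without it 3 of the 4 were higher, with a median of 2.43. These were Krt6a, Krt6b and Krt16, the first of which is named after its values were seen. The part of wound keratin levels in the 9 tight junction genes was not tested, and those genes kept their calls without mouse 480.

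Among appendage and deep tissue markers, 1 of 7 hair follicle, 1 of 5 sebaceous and 1 of 5 muscle genes was lower, and none of 4 adipocyte genes was called by edgeR. The most abundant of each list were not called, with log2 fold changes of -1.81 for Krt71 of the hair follicle, -0.35 for Elovl4 of sebocytes, -0.43 for Acta1 of muscle and 0.80 for Cidec of adipocytes. Without DMSO mouse 481 the hair follicle list had 1 gene higher and none lower, and the median turned from -1.83 to 3.46. The muscle count was 2 without DMSO mouse 480 and 0 without any other single mouse.

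Markers of vessels and dermis differed more. Of 6 endothelial markers, 5 were higher, with summed levels of 126 to 268 CPM with DMSO and 374 to 469 CPM with ABT-263 that did not overlap. Pecam1, an adhesion molecule between endothelial cells, rose by 1.03 on the log2 scale (edgeR adjusted p = 0.0280), and Cdh5, the endothelial cadherin, by 1.92 (edgeR adjusted p = 0.00622). The Cdh5 call held without each mouse, and that of Pecam1 was lost without DMSO mouse 482 or 483 or ABT-263 mouse 476 or 478 (log2 fold change 0.85 to 1.24). Cldn5, the endothelial claudin, had values of 25.5 to 59.0 CPM with DMSO and 43.4 to 57.4 CPM with ABT-263 and was not called (log2 fold change 0.30, edgeR adjusted p = 0.437). With 1 mouse left out, 3 to 5 endothelial markers were higher, 3 of them without DMSO mouse 482 or 483 or ABT-263 mouse 476 or 478. Of 5 fibroblast markers, 3 were higher and none lower, with sums of 3692 to 5135 CPM and 5768 to 8073 CPM. Col1a1, the most abundant of them, had a log2 fold change of 0.47 (edgeR adjusted p = 0.196), and the count was 2 to 3 with 1 mouse left out.

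Several immune cell markers were also higher. Macrophage markers were higher in 5 of 5 (155 to 387 against 638 to 2438 CPM), with Lyz2, the lysozyme gene, at a log2 fold change of 2.43 (edgeR adjusted p = 0.0210). The count was 1 of 5 without DMSO mouse 483, 3 of 5 without DMSO mouse 482 or ABT-263 mouse 476 or 478, and 4 of 5 otherwise, with list medians from 1.32 to 2.48. Neutrophil markers were higher in 2 of 4 tested (99.7 to 1820 against 5095 to 8086 CPM), and in 1 without DMSO mouse 482 or 483 or ABT-263 mouse 476 or 478. S100a9, the most abundant of them, was at 2.56 and was not called (edgeR adjusted p = 0.0772). The neutrophil gene that was under the filter on low counts had 0, 6, 0 and 3 counts in the DMSO mice. It had 391, 4 and 8 counts in ABT-263 mice 476, 477 and 478, so the groups overlapped and only mouse 476 was high.

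Each tight junction gene was therefore set against the mean log2 level of a marker list in the same mouse. Relative to the basal keratinocyte list, the Tjp1 difference between group means was 1.20 on the log2 scale without overlap (exact two-sided permutation test, p = 0.0286, adjusted over 36 ratios 0.147), and the other 8 genes differed by -0.45 to 0.57 with overlap. Relative to the suprabasal list, the Tjp1 difference was 1.15, and the mice overlapped (exact permutation p = 0.171). Relative to the endothelial list, the log2 ratio of Tjp1 was -0.65 ± 0.53 (SD, n = 4) with DMSO and -0.65 ± 0.28 (SD, n = 3) with ABT-263, a difference of 0.00 (exact permutation p = 1) that ran from -0.16 to 0.25 with each mouse left out. Relative to the fibroblast list, the difference was 0.14 (exact permutation p = 0.6). The Tjp1 difference was thus close in size to that of the endothelial and fibroblast lists, both chosen with the marker values in view. The macrophage and neutrophil lists, with median log2 fold changes of 2.07 and 2.77, were not set against Tjp1. The part of these cell types in the Tjp1 difference was not tested.

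The other 8 genes were set against the same lists. Relative to the endothelial list, the log2 difference was -1.16 for Cldn1, -1.34 for Cldn12, -1.65 for Tjp3 and -0.84 for F11r, and for these 4 genes every ABT-263 mouse was below every DMSO mouse. Relative to the fibroblast list, Cldn1 (-1.02) and Cldn12 (-1.20) did not overlap. Each of these 6 ratios had the smallest exact permutation p, 0.0286, and an adjusted value of 0.147 over the 36 ratios, so none passed 0.05 after adjustment. The endothelial and fibroblast lists were added to this comparison after the marker values had been seen. Both lists rose, with median log2 fold changes of 1.04 and 0.83, so a gene that did not change falls against them. Cldn1, for one, had a log2 fold change of -0.02 by itself.

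**Figure D4:**
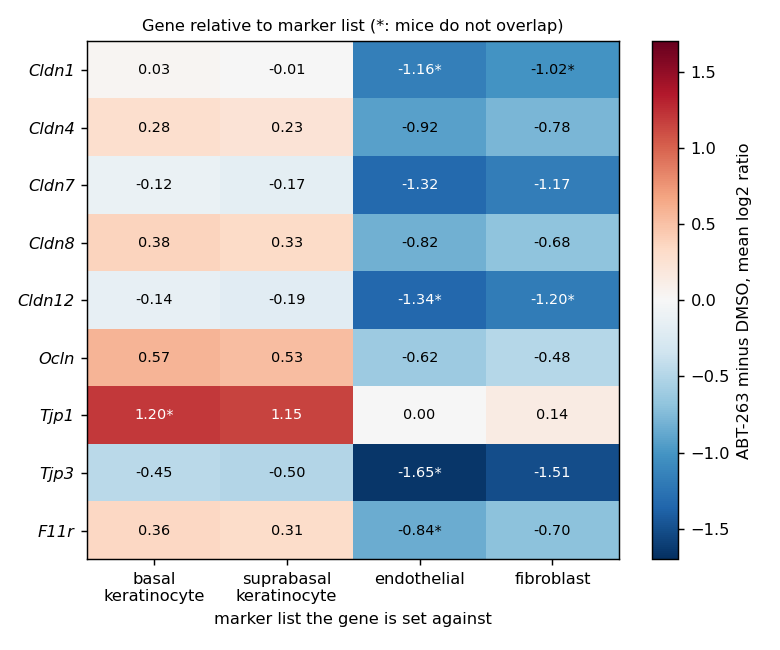
Difference of the mean log2 ratio, ABT-263 minus DMSO, of each of the 9 genes (rows) to the mean of 4 marker lists (columns), with the colour scale in log2 units and a star where the mice of the groups do not overlap. Tjp1 is at 1.20 and 1.15 against the keratinocyte lists and near 0 against the endothelial and fibroblast lists, while the other genes lie between -0.50 and 0.57 against keratinocytes and between -1.65 and -0.48 against the other lists.

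The rest of the junction machinery was read from lists of named genes. Across all genes tested, 24.2% were called, 12.4% as higher and 11.7% as lower, and 37.1% had groups without overlap. None of the junction and regulator lists below had a larger share called than the whole table. Of the other claudins, 8 of 18 in the table had enough counts to be tested, and 1 of the 8 was lower and none higher, with a median log2 fold change of -0.34. The gene that fell was Cldn19, a claudin of kidney tubules and of Schwann cells, with 4.34, 1.90, 4.26 and 3.74 CPM with DMSO and 1.47, 1.59 and 1.74 CPM with ABT-263 (log2 fold change -1.15, edgeR adjusted p = 0.0394). All ABT-263 values were below all DMSO values, DMSO mouse 481 being close to them. The call was kept without DMSO mouse 481 and lost without any other single mouse (log2 fold change -1.36 to -1.04). Cldn17, under the filter on low counts in that test and named after its values were seen, had 0 counts in every DMSO mouse and 5 to 37 with ABT-263. With every gene of at least 1 count kept, Cldn17 was called higher (edgeR adjusted p = 0.00835) and Cldn19 was not called, and DESeq2 called both. Without ABT-263 mouse 477, Cldn17 was likewise the 1 claudin called, as higher (edgeR adjusted p = 0.0193). In each of these tests Cldn17 was kept through its ABT-263 counts alone, so those calls are no separate support. Of 4 Schwann cell markers, 1 was lower, and their sum was 108 to 199 CPM with DMSO and 99.99 to 113 CPM with ABT-263, the part of which was not tested.

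Among 9 other membrane proteins of tight junctions that were tested, 1 was higher and 1 lower, with a median of 0.46. Jam2, which encodes JAM-B, an adhesion molecule known chiefly from endothelium, was measured at 12.1, 8.55, 11.9 and 11.7 CPM with DMSO and at 26, 21 and 31 CPM with ABT-263. It rose by 1.233 on the log2 scale (SE 0.19, edgeR adjusted p = 0.00732), and every ABT-263 mouse was above every DMSO mouse. Lsr, which encodes angulin-1, the protein that marks the corners where 3 epithelial cells meet, was measured at 132, 135, 131 and 113 CPM with DMSO and at 72.1, 88.9 and 71.4 CPM with ABT-263. It fell by 0.72 on the log2 scale (SE 0.14, edgeR adjusted p = 0.0120), and all ABT-263 values were below all DMSO values. Both calls held without each mouse in turn.

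Of 24 other plaque and polarity genes, 2 were higher, 1 was lower and 21 were not called, with a median of 0.08. Amotl1, an angiomotin family scaffold that binds actin and YAP, fell from 299, 436, 333 and 338 CPM with DMSO to 129, 146 and 146 CPM with ABT-263 (log2 fold change -1.32, SE 0.17, edgeR adjusted p = 0.00626). Its paralogue Amotl2 was higher by 0.41 (edgeR adjusted p = 0.0352). The Amotl1 call held without each mouse in turn, whereas that of Amotl2 was kept only without ABT-263 mouse 477 (0.32 to 0.47 over the mice left out).

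Of 11 adherens junction genes, 1 was higher and none lower, with a median of 0.08. The gene was Ctnnb1, which encodes beta-catenin, at 229, 281, 219 and 213 CPM with DMSO and 312, 362 and 385 CPM with ABT-263 (log2 fold change 0.58, edgeR adjusted p = 0.0317). The groups did not overlap, and the call was lost without DMSO mouse 482 or 483 or ABT-263 mouse 477 or 478 (log2 fold change 0.52 to 0.67). Cdh1, the gene of E-cadherin named after its values were seen, had a log2 fold change of -0.01 (edgeR adjusted p = 0.979).

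Of 11 regulators of the epidermal barrier, 1 was higher, 1 was lower and the median was -0.08. Grhl3, a grainyhead transcription factor needed for barrier formation, had 17.4, 9.44, 12.2 and 4.40 CPM with DMSO and 50.2, 45.2 and 53.5 CPM with ABT-263. It rose by 2.19 on the log2 scale (SE 0.39, edgeR adjusted p = 0.0109), and the lowest ABT-263 mouse was far above the highest DMSO mouse. Its relatives Grhl1 (0.27, edgeR adjusted p = 0.515) and Grhl2 (0.01, edgeR adjusted p = 0.973), named after their values were seen, were not called. Spint2, an inhibitor of the membrane serine proteases of the epidermis, fell by 0.75 on the log2 scale (edgeR adjusted p = 0.0400), a call kept only without ABT-263 mouse 477 among the mice left out (-0.96 to -0.61).

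**Figure D5:**
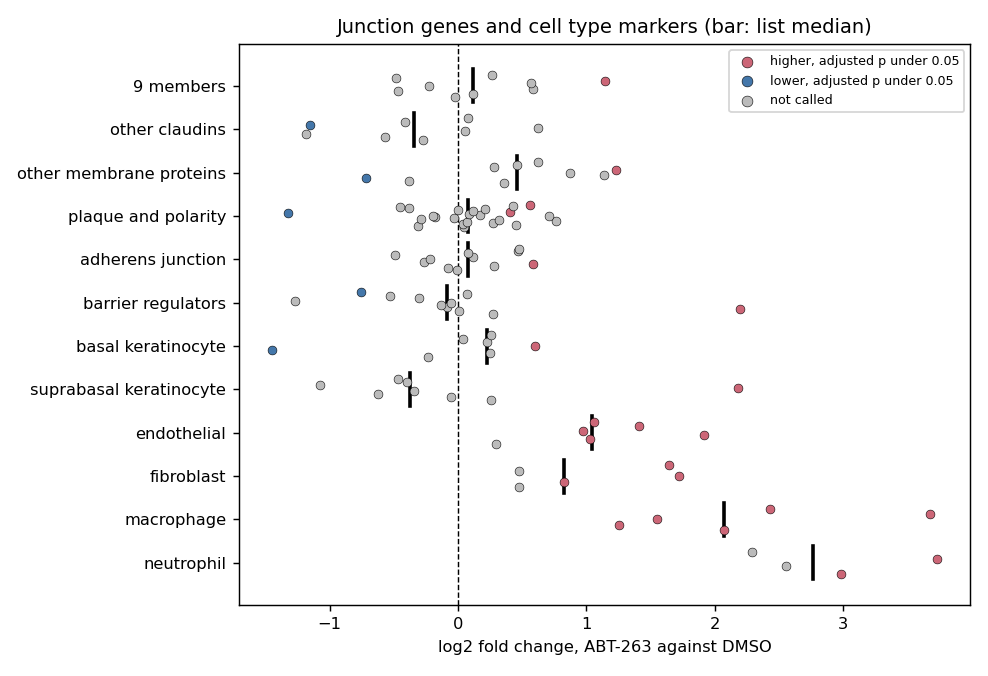
Log2 fold change of ABT-263 against DMSO (horizontal axis) for the 9 tight junction genes, 5 other junction and regulator lists and 6 marker lists, with 1 point per tested gene, coloured by its edgeR call, and a bar at each list's median. The junction medians lie between -0.34 and 0.46, and those of the endothelial, fibroblast, macrophage and neutrophil lists lie at 1.04, 0.83, 2.07 and 2.77.

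The protein-coding genes whose pattern over the 7 mice was most like that of each member were taken by the root mean square difference of centred log2 values, over 13771 genes with at least 1 CPM on average. For Tjp1 they were Bag2 at 0.0923 and Emc4 at 0.106, for Ocln Kank1 at 0.103 and Smo at 0.106, and for Tjp3 Gsta2 at 0.0998 and Ankrd35 at 0.156. For Cldn1 they were Lrba at 0.0366 and Ssx2ip at 0.0687, for Cldn12 Rasa1 at 0.0472 and Rprd1b at 0.0534, and for F11r Uck2 at 0.0413 and Dctn5 at 0.0596. For Cldn4 they were Rassf5 at 0.122 and Star at 0.126, for Cldn7 Penk at 0.167 and Crhr2 at 0.243, and for Cldn8 Ptpn3 at 0.246 and Frk at 0.253. No member was among the 2 nearest genes of another member. Genes with small spread over the mice reach small distances more easily, so the distances describe these 7 libraries only.

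Total counts were 20344364 to 26824123 per DMSO library and 27325963 to 43562330 per ABT-263 library, so every ABT-263 library was deeper. Counts thinned to the smallest library gave the same calls for the 9 genes. Spearman correlations across genes between mice of 1 group lay between 0.954 and 0.987 and those between mice of different groups between 0.881 and 0.974. The highest of the latter, of DMSO mouse 480 with ABT-263 mouse 477, was above several within a group, and no pair of libraries agreed within sampling noise. The edgeR p-values set each group difference against the spread between these mice, an estimate that the test partly shares across genes.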

How the data were processed

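Bulk RNA sequencing of dorsal skin from 7 aged mice was analysed. The authors aligned reads to mm10 with STAR 2.7.9a, counted uniquely aligned proper pairs on the same strand per non-mitochondrial Ensembl gene with featureCounts (Subread 1.6.2), and deposited raw counts. They also deposited variance-stabilized values on a log2 scale from DESeq2 1.23.10, used here only as an alternative.

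Of the 55450 identifiers, 55190 had an entry in GENCODE M21 (GRCm38), the source of symbols, positions and lengths, so a gene model could differ from the one used for counting. Counts were tested with edgeR 4.0.16 in R 4.3.3 (TMM, filterByExpr, robust quasi-likelihood, two-sided, Benjamini-Hochberg over 17959 genes, threshold 0.05), over 4 DMSO and 3 ABT-263 mice without covariates. The study used the DESeq2 Wald test, run here as an alternative (DESeq2 1.42.0), as was limma 3.58.1. Ratios within a mouse used log2(CPM + 0.5) and exact two-sided permutation over 35 arrangements. The pipeline was tested on simulated data. The depth of 20344364 to 43562330 counts per library limits genes under 1 CPM most.

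The members and lists were chosen with earlier results of these data known. Named genes were all members, up to 4 called genes per direction in each other junction list, the 1 to 3 most abundant genes of each marker list and the 2 nearest genes by pattern. Other names are said to be chosen after their values were seen. Alternatives were other normalizations, filters and tools, thinned counts, removal of length and GC trends, and each mouse left out. Within these lists, 3 genes, 1 of them a plaque gene called higher, are not reported here by name.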

Additional observations from a re-analysis of the deposited data

Results flagged for a closer look

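Among 33 measures of members and marker lists examined in the 4 DMSO mice, 4 had 1 mouse far from the others by Dixon's ratio of gap to range, against 1.65 that chance gives at 1 in 20. F11r counts had a ratio of 0.829, at the critical value of 0.829, with DMSO mouse 480 highest. The summed basal keratinocyte list (0.912) and the summed wound keratin list (0.843) also had DMSO mouse 480 highest. The summed hair follicle list had a ratio of 1 to 3 digits, with 2642 CPM in DMSO mouse 481 and 63.4 to 64.1 CPM in the others. Without DMSO mouse 480 the 9 genes kept their calls, and 3 of the 4 wound keratins were called higher against 0 with it.

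Cldn17, a claudin under the expression filter of the reported test, had 0 counts in all 4 DMSO libraries and 30, 5 and 37 counts in ABT-263 mice 476, 477 and 478. The sum of 72 counts is at least 19.3-fold higher, relative to depth, than the limit that a count of 0 allows over the DMSO group (3 counts), which covers counting error only. Tests without that filter, and without ABT-263 mouse 477, called it higher. In each of them the gene was kept through its ABT-263 counts alone. All these tests use the same counts, so their calls add no separate support.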

How the results depend on the processing

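The number of the 9 genes called, and Tjp1 as that gene, held under every alternative run, with adjusted p for Tjp1 between 1.36e-05 and 0.0359. The remaining 8 genes were called in none of those that tested them. The estimates of Cldn1, Cldn4 and Cldn8, none of them called, changed sign. Cldn1 was 0.015 with every gene of at least 1 count kept and ran from -0.15 to 0.19 with each mouse left out. Cldn4 ran from -0.070 to 0.42, and Cldn8, at 0.58 with all mice, from -0.23 to 0.98. Calls over the whole table numbered 4342, and 1735 to 4169 with 1 mouse left out, lowest without ABT-263 mouse 478 (1735) and DMSO mouse 482 (1824). Calls among the other claudins were 2 with DESeq2 (1 higher, 1 lower), 0 with limma on the deposited log2 values, 1 (higher) with every gene of at least 1 count and 0 to 1 with a mouse left out, the call without ABT-263 mouse 477 being higher. With a mouse left out they were 1 to 4 for plaque genes, 0 to 1 for adherens genes and 1 to 3 for barrier regulators. The causes were not tested. Tjp1 relative to the suprabasal list was 1.15, with overlap. By longest transcript, Cldn7 took place 8 and Cldn8 place 9 in DMSO. Among genes of at least 10 CPM the nearest to Tjp1 was at 0.106 and to Tjp3 at 0.156. Cldn7 gave no value where 10 counts in every library were required or without DMSO mouse 481 or 483. No paired analysis was possible because the groups share no mouse numbers.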
